A study of Mus musculus with 8 samples.

Results

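The Ikaros family of zinc finger transcription factors was described in bulk RNA-seq of splenic T cells from mice with experimental autoimmune encephalomyelitis (EAE), an autoimmune disease of the central nervous system, 7 days after its induction with the myelin protein MOG. Its members were the rows of the deposited gene table with the symbols Ikzf1, Ikzf2, Ikzf3, Ikzf4 and Ikzf5, which are 5 of its 18438 genes. All 5 passed the filter on low values (10 or more in 2 or more libraries) and were tested, as were 13358 genes in all. The cells were regulatory T cells (Treg), which had been sorted for CD4+CD25hiYFP+, and effector T cells (Teff, CD4+CD25-YFP-). The C57BL/6 mice were wild type (WT) or labelled IRE1a-/- (KO). IRE1a, the product of Ern1, senses misfolded protein in the endoplasmic reticulum. Each of the 4 groups held 2 libraries, and every mouse had EAE. What the YFP reports, which cells carry the deletion and how it was made are not given in the sources used here. Since no label ties the libraries of a group to separate mice, p-values cover only the spread between libraries, part of which may be technical.

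Ikaros family proteins bind DNA through zinc fingers near the N-terminus and pair with each other through fingers at the C-terminus. They recruit chromatin complexes such as NuRD and mostly act as repressors, though activation has also been described. Ikaros (Ikzf1) is needed for lymphocyte development, Helios (Ikzf2) marks many thymus-derived Treg, Aiolos (Ikzf3) acts in B cells and in helper T cell differentiation, and Eos (Ikzf4) is a corepressor that works with Foxp3. Pegasus (Ikzf5) is the most divergent relative and binds a different DNA motif.

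In the GENCODE M21 annotation of GRCm38, Ikzf1 lies at chr11:11685003-11772926 on the plus strand. The other members lie on the minus strand, with Ikzf2 at chr1:69531214-69687245, Ikzf3 at chr11:98464902-98546031, Ikzf4 at chr10:128630843-128645991 and Ikzf5 at chr7:131388652-131410521. These spans cover exons and introns. The sequences below encode the second finger found in each member's reading frame, read 5′ to 3′ from GENCODE M21 transcripts. They are shown because 4 members encode the same residues here and still differ in their bases, which bears on whether short reads can be told apart. Capitals mark the codons of the cysteines and histidines that hold the zinc ion.
Ikzf1: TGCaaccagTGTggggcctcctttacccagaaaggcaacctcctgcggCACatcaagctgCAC
Ikzf2: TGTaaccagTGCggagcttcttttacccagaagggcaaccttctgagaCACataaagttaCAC
Ikzf3: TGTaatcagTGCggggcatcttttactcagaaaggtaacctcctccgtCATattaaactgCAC
Ikzf4: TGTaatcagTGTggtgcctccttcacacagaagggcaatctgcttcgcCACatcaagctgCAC
Ikzf5: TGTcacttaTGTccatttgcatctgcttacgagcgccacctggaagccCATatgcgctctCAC

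The fingers of Ikzf1, Ikzf2, Ikzf3 and Ikzf4 encode the same amino acid at 21 of 21 positions, while 76.2% to 84.1% of their 63 bases are the same. The Ikzf5 finger, paired by its order in the protein, has the same amino acid as each of the others at 5 of 21 positions. Reads were 50 bases long, and no window of 50 bases in any transcript of a member occurs in a transcript of another member, on either strand. A full read of one member therefore does not match another exactly. The longest run shared by any pair of members is 32 bases, between Ikzf2 and Ikzf4. A read trimmed to that length or less could match both. Windows of 50 bases that also occur in transcripts of genes outside the family make up 0 of 5871 for Ikzf1, 97 of 11844 for Ikzf2, 0 of 8703 for Ikzf3 and 33 of 6229 for Ikzf4. For Ikzf5 they make up 4734 of 5818, or 81.4%, of which 4557 occur in Pstk. That gene runs on the opposite strand and its exons overlap those of Ikzf5 over 4652 bases. The labels name no step that marks RNA strand, and Pstk itself had values between 371 and 473, so the Ikzf5 values are uncertain and may hold reads of Pstk.

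Values are the authors' normalized read numbers, and the 8 libraries summed to between 17504097 and 18751258. Ern1 had a mean of 388 in WT Treg and 342 in KO Treg, and 587 in WT Teff and 455 in KO Teff. Neither genotype difference passed the test, and because the values cover the whole gene they do not check the genotype labels. All 10 Treg markers examined were called higher in Treg than in Teff in each genotype, where 13.5% of all tested genes were in WT and 15.7% in KO. Among them, Foxp3 passed the filter only through Treg, and Il2ra encodes CD25, on which the cells were sorted. The calls of these genes are not counted as support for the cell types. Foxp3, the lineage factor of Treg, was low in Treg at 89.1 to 117 and both WT Teff libraries list it at 0. The summed level of 9 macrophage and monocyte markers was 23103 and 24073 in WT Treg, 14439 and 13630 in KO Treg, 2944 and 1652 in WT Teff and 1391 and 1030 in KO Teff (replicates 1 and 2). None of the 9 was at 0 in both libraries of a group. The sum of 10 B cell markers lay between 391 and 906, but its members did not move together. Pax5 had 5.74 and 2.87 in WT Treg and 178 and 162 in KO Treg, and 12.6 and 17.7 in WT Teff and 9.06 and 168 in KO Teff. Between KO and WT in Treg 0 of the 10 were called, where 1.45% of all tested genes were. The 13 protein-coding genes of the mitochondrial genome took 5.22% to 7.33% of a library. In bulk RNA, fewer cells of a type and less RNA per cell cannot be told apart.

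All 5 members had transcripts in every library, and the levels of several differed between Treg and Teff. Ikzf2 and Ikzf4 were higher in Treg and Ikzf1 was higher in Teff, in both genotypes, while Ikzf3 was called higher in Treg in KO. In WT 3 of 5 members were called, 2 higher in Treg and 1 lower, where 25.1% of all tested genes were (13.5% higher, 11.6% lower). In KO 4 of 5 were, 3 higher and 1 lower, where 26.9% of genes were (15.7% higher, 11.2% lower). Libraries of Treg and Teff did not overlap for 4 of 5 members in each genotype, where 63.5% of tested genes did not overlap in WT and 64.9% in KO.

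Eos showed the widest gap. Ikzf4 had 3149 and 3565 in WT Treg and 2895 and 3150 in KO Treg, but 199.99 and 158 in WT Teff and 196 and 212 in KO Teff. Every Treg library thus lay above every Teff library. The mean in WT was 3357 ± 294 in Treg and 179 ± 29.7 in Teff (SD, n = 2), a log2 difference of 4.23 (SE 0.13), or 18.75-fold, with an adjusted p of 5.77e-06. In KO the means were 3022 ± 181 and 204 ± 11.5 (SD, n = 2), a log2 difference of 3.88 (SE 0.13, adjusted p = 6.27e-06). Expressed as a share, the Teff level of Ikzf4 was 5.33% of the Treg level in WT and 6.75% in KO. The corresponding shares for Il2ra, which encodes CD25 and follows the sort, were 7.12% and 5.53%. By level the groups ran WT Treg, KO Treg, KO Teff, WT Teff, and the 2 genotypes overlapped within each cell type.

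Helios followed the same direction with a smaller gap. Ikzf2 had 15459 and 15306 in WT Treg and 12575 and 10701 in KO Treg. In Teff it had 1656 and 2724 in WT and 1185 and 969 in KO. All 4 groups were separate from each other, in the order WT Treg, KO Treg, WT Teff, KO Teff. The log2 difference between Treg and Teff was 2.86 (SE 0.22, adjusted p = 0.000142) in WT, or 7.24-fold, and 3.44 (SE 0.22, adjusted p = 4.79e-05) in KO, or 10.8-fold. The WT Teff level was 14.2% of that in WT Treg. Macrophage and monocyte markers also were higher in Treg, with 8 of 9 called higher in WT and 7 of 9 in KO and 1 lower in each. Over all tested genes 13.5% were called higher in WT and 15.7% in KO. The part of these cells in the Ikzf2 and Ikzf4 differences was not tested.

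Ikaros ran the other way. Ikzf1 had 5297 and 4842 in WT Treg and 5027 and 6261 in KO Treg, against 14794 and 15608 in WT Teff and 12599 and 16411 in KO Teff. The lowest Teff library was above the highest Treg library. Means were 5070 ± 321 in WT Treg and 15201 ± 576 in WT Teff (SD, n = 2), and the log2 difference of Treg from Teff was -1.58 (SE 0.14, adjusted p = 0.000302), so that Teff were 3.00-fold higher. In KO it was -1.36 (SE 0.14, adjusted p = 0.000441). Within a cell type the libraries of the 2 genotypes overlapped. Markers of other cells also were higher in Teff than in Treg. The sum of 4 natural killer (NK) cell markers was 695 and 786 in WT Teff and 61.4 and 74.8 in WT Treg, with 3 of 3 tested called lower in Treg, and 2 of 3 in KO. That of 6 plasmacytoid dendritic cell markers was 1722 and 2142 in WT Teff and 1251 and 1278 in WT Treg. Bst2, with means of 1065 in WT Treg and 928 in WT Teff, made up most of the WT Treg sum. Of the 6, 4 were called lower in Treg in each genotype, with a median log2 difference of -2.37 in WT. Siglech and Klk1 among them, and Klre1 among the NK cell markers, were under 10 in every Treg library. They entered the test only through Teff, so their part in these counts and in the median is not read as a result. The sum of 4 plasma cell markers was 188 and 142 in WT Teff against 75.4 in each WT Treg library, with 1 of 3 tested called lower in WT. In KO 1 was called higher in Treg, where 15.7% of all tested genes were, and 1 lower. Jchain made up most of the WT Teff sum, at 154 and 116. Derl3 ran the other way, at 16.9 and 26.9 in WT Treg and 9.63 and 14.4 in WT Teff. Over all tested genes 11.6% were called lower in Treg in WT and 11.2% in KO. The sum of 5 erythroid markers ran the opposite way, at 257 and 125 in WT Teff and 1133 and 1234 in WT Treg. The part of these cell types in the Ikzf1 difference was not tested.

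Aiolos was higher in Treg than in Teff in KO, while the difference in WT did not pass. Ikzf3 had 2823 and 2511 in WT Treg and 2131 and 2375 in WT Teff, separate ranges with a log2 difference of 0.24 (SE 0.08) that did not pass (adjusted p = 0.0693), although it passed when libraries were scaled to equal sums (0.30, adjusted p = 0.0260). In KO it had 3330 and 3187 in Treg and 2109 and 2068 in Teff, a log2 difference of 0.64 (SE 0.08, adjusted p = 0.00109). The groups ran KO Treg, WT Treg, WT Teff, KO Teff without overlap between neighbours. Ikzf5, whose values are shared with Pstk as described, had 863 and 886 in WT Treg, 859 and 918 in KO Treg, 834 and 1138 in WT Teff and 683 and 954 in KO Teff. All 4 ranges overlapped their neighbours, and the log2 differences between Treg and Teff were -0.16 in WT (95% interval -0.60 to 0.29) and 0.14 in KO (-0.30 to 0.58), neither of which passed (adjusted p = 0.599 and 0.639).

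The calls of Ikzf1, Ikzf2 and Ikzf4 in both genotypes, and of Ikzf3 in KO, held in all 18 alternative fits.

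**Figure D1:**
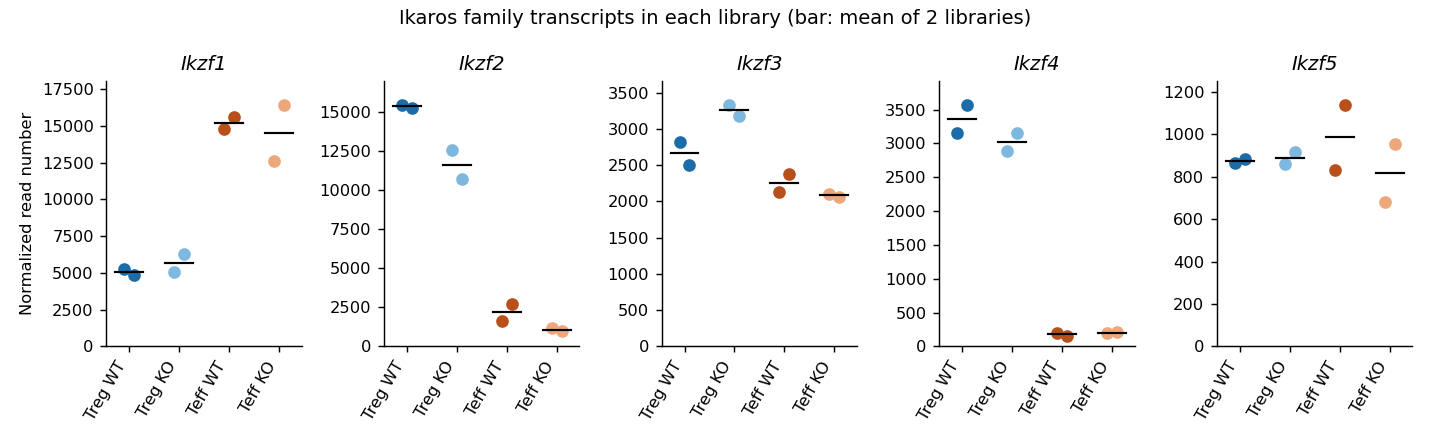
Normalized read number of each family member in each library, with 1 panel per gene, a linear axis from 0, points for the 2 libraries of a group and a bar for their mean. Ikzf2 and Ikzf4 are high in the 4 Treg libraries, Ikzf1 in the 4 Teff libraries, and Ikzf5 overlaps in all groups.

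Levels of different genes were set side by side only per length, as normalized reads per kilobase of merged exons (5777 bases for Ikzf1, 11613 for Ikzf2, 8754 for Ikzf3, 5995 for Ikzf4 and 5721 for Ikzf5). The per-kilobase sum of the family lay between 2676 and 3433 per library, with its lowest and highest values both in Teff, while its make-up differed between the cell types. In WT Treg, Ikzf2 held 41.1% ± 0.200 of the sum, Ikzf1 27.2% ± 1.40, Ikzf4 17.4% ± 1.73, Ikzf3 9.46% ± 0.672 and Ikzf5 4.75% ± 0.143 (SD, n = 2), with no overlap between neighbours in per-kilobase level. In KO Treg, Ikzf2 and Ikzf1 overlapped, at 33.3% ± 4.48 and 32.4% ± 4.34 (SD, n = 2). No test was run on these shares. In Teff, Ikzf1 held 80.3% ± 2.27 in WT and 83.0% ± 2.11 in KO, and Ikzf3 came next at 7.84% ± 0.0814 and 8.01% ± 1.40 (SD, n = 2). Ikzf4 held 0.917% ± 0.212 of the sum in WT Teff and 1.14% ± 0.119 in KO Teff, the smallest share in each. The shares moved with the transcript length used. With the mean length of protein-coding transcripts the share of Ikzf2 in WT Treg was 56.1%, and with the longest such transcript, an alternative added after the data were seen, it was 39.3%. Ikzf2 led in WT Treg and Ikzf1 in Teff with each of the 3 lengths. The order below the first member changed with the length. With the longest transcript Ikzf3 held 17.3% and Ikzf4 15.5% in WT Treg, and their per-kilobase levels overlapped, while with the mean length Ikzf4 held 9.41% and Ikzf3 6.84%. In WT Teff with the mean length, Ikzf2 came next after Ikzf1 at 9.14%, and Ikzf5 at 7.37% and Ikzf3 at 6.68% followed, with overlap between Ikzf2 and Ikzf5 and between Ikzf5 and Ikzf3.

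**Figure D2:**
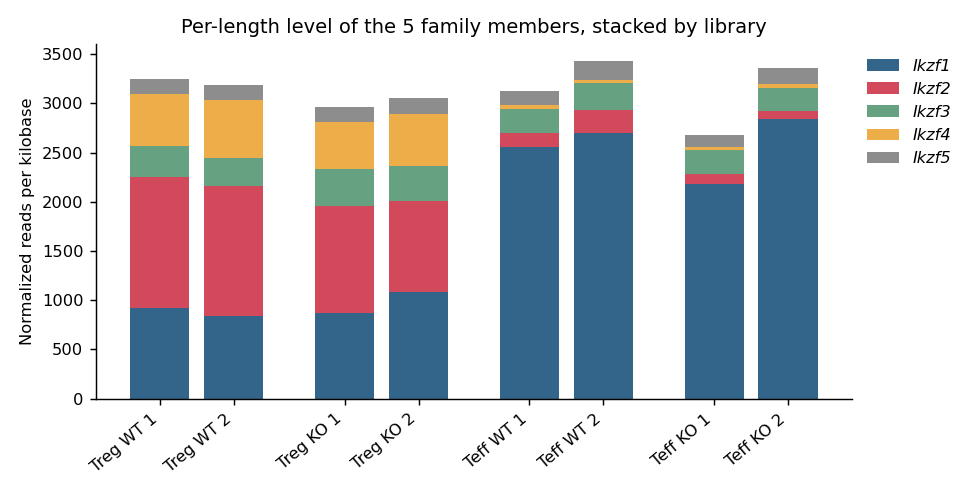
Per-kilobase level of the 5 members, stacked for each of the 8 libraries, on a linear axis from 0 in normalized reads per kilobase of merged exons. Total heights lie between 2676 and 3433, with Ikzf2 and Ikzf4 filling much of the Treg bars and Ikzf1 most of the Teff bars.

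The second question was whether the genotype changed the family within a cell type. In Treg no member passed the test, where 1.45% of all tested genes did (0.674% higher and 0.779% lower in KO), and 1 member had an unadjusted p under 0.05, as did 1964 of the 13358 genes. Libraries of the genotypes did not overlap for Ikzf2 and Ikzf3, 2 of 5 members, where 48.7% of tested genes did not overlap. Ikzf2 was lower in both KO libraries, with means of 15383 ± 108 in WT and 11638 ± 1325 in KO (SD, n = 2), and a log2 fold change of -0.41 (95% interval -0.92 to 0.10, adjusted p = 0.460). Ikzf3 was higher in both KO libraries, with means of 2667 ± 221 in WT and 3258 ± 101 in KO (SD, n = 2), and a log2 fold change of 0.29 (95% interval 0.10 to 0.48, adjusted p = 0.155). The authors' deposited table gave 0.29 and an adjusted p of 0.0836 for Ikzf3 in Treg. For Ikzf1, Ikzf4 and Ikzf5 the log2 fold changes were 0.15 (95% interval -0.19 to 0.48), -0.15 (-0.46 to 0.16) and 0.02 (-0.42 to 0.46). None of these 3 passed (adjusted p = 0.696, 0.659 and 0.981). Without KO Treg replicate 2 the values for Ikzf1 and Ikzf5 changed sign, to -0.011 and -0.025.

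In Teff, Ikzf2 fell in KO and was the 1 of 5 members called, where 6.92% of all tested genes were (5.08% lower and 1.84% higher). Its mean went from 2190 ± 755 to 1077 ± 153 (SD, n = 2), a log2 fold change of -0.99 (SE 0.22, adjusted p = 0.0406), or 1.98-fold lower. Both KO libraries, at 1185 and 969, lay below both WT libraries, at 1656 and 2724, and the WT pair itself was spread widely. The authors' deposited table gave a log2 fold change of -1.02 with an adjusted p of 0.00531. The direction was the same in all 18 alternative fits, with log2 fold changes from -1.35 to -0.63, but the call was kept in 8 of them and lost in 10, with adjusted p up to 0.183. It was lost without WT Teff replicate 2, the higher WT library (-0.63, adjusted p = 0.0873), without KO Teff replicate 1 (-1.13, adjusted p = 0.0796) and without KO Teff replicate 2 (-0.84, adjusted p = 0.183). Leaving out a single Treg library, whose values enter this comparison through the shared spread, also ended it (adjusted p = 0.0657 to 0.0773). Without WT Teff replicate 1 the call held (-1.35, adjusted p = 0.0123).

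Other markers moved in the same comparison. Of 10 Treg markers, 5 were called lower in KO Teff (Capg, Ctla4, Nrp1, Tigit and Tnfrsf18) and 2 higher (Gpr83 and Foxp3). Over all tested genes 5.08% were called lower and 1.84% higher, the shares to set beside each count in this paragraph. The sum of the Treg markers was 11001 to 11636 in WT and 7860 to 8747 in KO. The Tigit call held in all 18 alternative fits. That of Tnfrsf18 was lost in 7 of them, among them those without WT Teff replicate 2 or either KO Teff library (adjusted p up to 0.114). That of Capg was lost in 4, among them those without WT Teff replicate 2 or KO Teff replicate 2 (up to 0.0697), that of Nrp1 in 3, 1 of them without KO Teff replicate 2 (up to 0.0799), and that of Gpr83 with Teff fitted alone (0.0564). Foxp3, the defining member, was at 0 in both WT Teff libraries and at 2.06 and 8.29 in KO Teff. All these values are under 10, so it passed the filter only through Treg and its call in Teff is not read as a rise. The macrophage and monocyte sum was also lower in KO Teff, with 0 of 9 members called. Within WT Teff it was 2944 in replicate 1 and 1652 in replicate 2, and the plasma cell and erythroid sums were also higher in replicate 1. The Treg, B cell, plasmacytoid dendritic cell, NK cell and pan T cell sums were higher in replicate 2, as Ikzf2 was. The library sum was higher there too. As a share of it, the pan T cell markers were lower in replicate 2, at 0.550% against 0.554% in replicate 1. The sum of 10 B cell markers was 692 and 856 in WT Teff and 391 and 428 in KO Teff, with 1 called lower and a median log2 fold change of -0.36. Cd22 made up most of the WT Teff sum, at 524 and 685, and had 279 and 153 in KO Teff. Pax5 ran the other way in KO Teff replicate 2, at 168. The sum of 6 plasmacytoid dendritic cell markers was 1722 and 2142 in WT and 1519 and 1211 in KO. Of these 1 was called lower, with a median of -0.96, against -0.02 over all tested genes. The plasma cell marker sum went from 188 and 142 in WT Teff to 69.3 and 64.0 in KO Teff, with 1 of 3 tested called lower, and the NK cell marker sum from 695 and 786 to 556 and 454, with 0 of 3 called. Jchain made up most of the plasma cell sum, at 154 and 116 in WT Teff and 53.1 and 47.6 in KO Teff. Of 8 pan T cell markers 1 was called lower, Zap70, a kinase of T cell receptor signalling (-0.28, adjusted p = 0.0314), and their sum was 100625 and 103075 in WT Teff and 96132 and 96824 in KO Teff. The part of these cell types in the Ikzf2 result was not tested.

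The other members did not pass in Teff. Libraries did not overlap for 2 of 5 members, Ikzf2 and Ikzf3, where 49.8% of tested genes did not overlap. Ikzf3 had means of 2253 ± 172 in WT and 2088 ± 29.0 in KO (SD, n = 2), with a log2 fold change of -0.11 (95% interval -0.30 to 0.08, adjusted p = 0.505). For Ikzf1, Ikzf4 and Ikzf5 the log2 fold changes were -0.08 (95% interval -0.41 to 0.25), 0.20 (-0.11 to 0.50) and -0.27 (-0.71 to 0.17). That of Ikzf1 changed sign without KO Teff replicate 1, to 0.11.

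The difference between the genotype effects in Treg and in Teff was tested directly and passed for no member, where 0.0225% of tested genes passed. It also tests whether the gap between Treg and Teff depends on genotype. For Ikzf3 the effect in Treg exceeded that in Teff by 0.40 on the log2 scale (95% interval 0.13 to 0.67, adjusted p = 0.304). For Ikzf2 the difference was 0.58 (95% interval -0.14 to 1.30, adjusted p = 0.596), so the call in Teff and its lack in Treg do not show unequal effects. For Ikzf1, Ikzf4 and Ikzf5 it was 0.23, -0.35 and 0.29 (adjusted p = 0.775, 0.599 and 0.782).

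**Figure D3:**
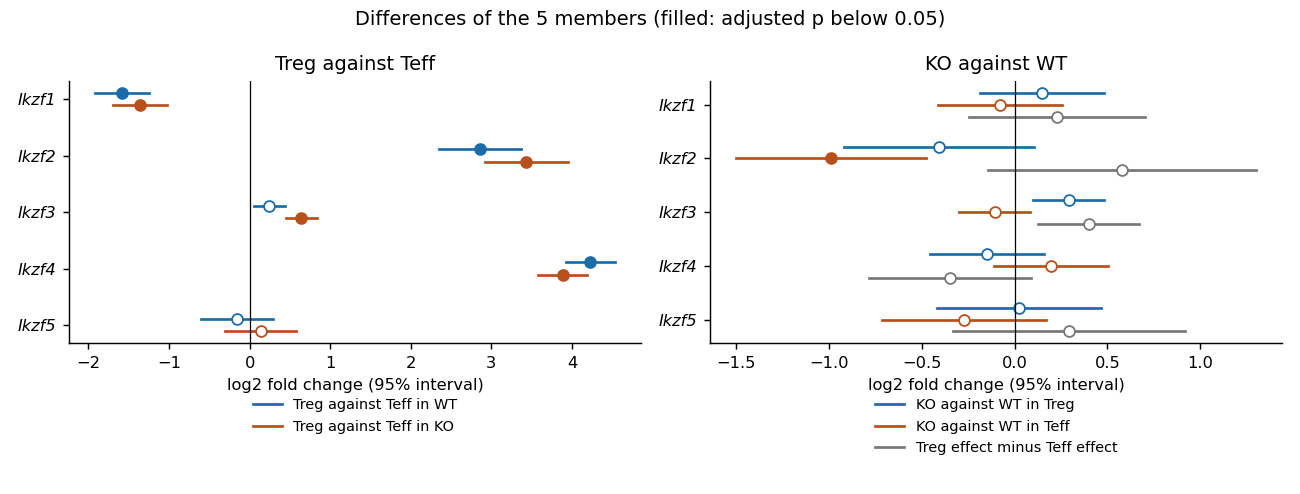
Log2 differences of the 5 members with 95% intervals, between Treg and Teff in each genotype (left) and between KO and WT in each cell type with the difference of these effects (right). Filled points passed the test, among them Ikzf1, Ikzf2 and Ikzf4 in both genotypes on the left and Ikzf2 in Teff on the right.

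**Figure D4:**
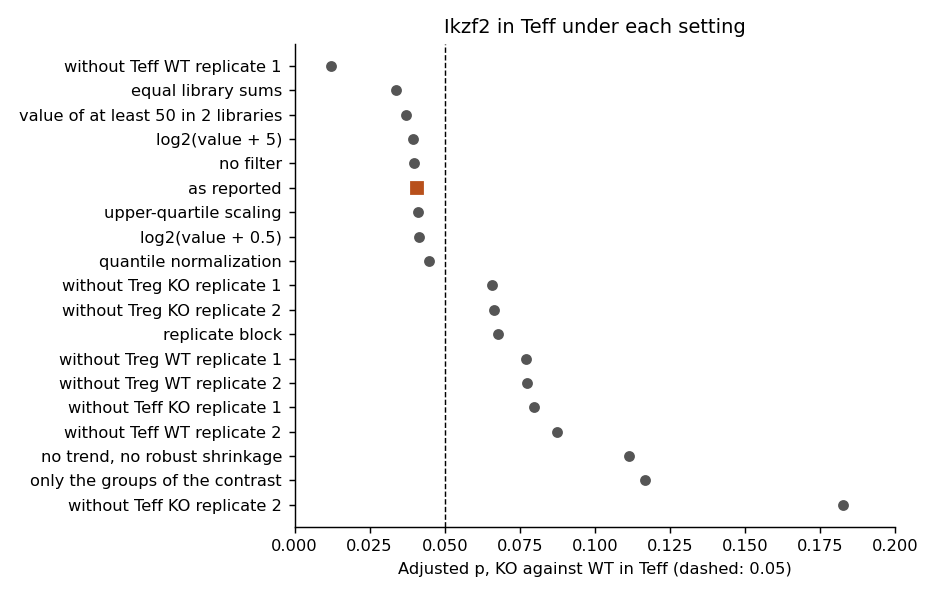
Adjusted p of Ikzf2 for KO against WT in Teff under each of 18 alternative fits (circles) and as reported (square), with a dashed line at 0.05. The value as reported is 0.0406, and 10 alternatives lie beyond the line, up to 0.183.

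Genes with profiles most like a member were found as the root mean square (RMS) difference between log2 profiles over the 8 libraries, each centred on its own mean, among 9181 genes with a mean of at least 5 per 1000000 of the library sum. These were picked for their likeness, so their values are a description. Nearest to Ikzf2 were Cd83, an activation marker of lymphocytes and dendritic cells (RMS difference 0.137), Zc3h12c, a relative of the RNase Regnase-1 (0.196), and Tnfrsf4, which encodes the costimulatory receptor OX40 (0.213). Cd83 had means of 3227 in WT Treg, 2366 in KO Treg, 458 in WT Teff and 228 in KO Teff, the same order of groups as Ikzf2. Tnfrsf4 had 9150, 7644, 1347 and 740 in that order of groups. Its log2 fold change in KO Teff was -0.87, and that of Cd83 was -1.01. A fall there follows from how these genes were picked, so it says nothing more about the Ikzf2 result.

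Nearest to Ikzf4 were Il2ra (RMS difference 0.248), Rln3, which encodes the peptide relaxin-3 (0.297), and Sspo (0.308). Il2ra had means of 8978 in WT Treg and 8793 in KO Treg against 639 in WT Teff and 486 in KO Teff. Nearest to Ikzf1 were Mboat1 (0.139), Enc1 (0.142) and Apol7e (0.159), all lower in Treg. Enc1 had means of 170 and 186 in WT and KO Treg and 458 and 547 in WT and KO Teff. The profiles of Ikzf3 and Ikzf5 were flat, with an RMS spread around their own means of 0.254 and 0.193, against 0.749 for Ikzf1, 1.63 for Ikzf2 and 2.03 for Ikzf4. Their nearest genes were Atp2b1, a plasma membrane calcium pump (0.0634), for Ikzf3 and Ubfd1 (0.0946) for Ikzf5. All these distances share the same 8 libraries.

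**Figure D5:**
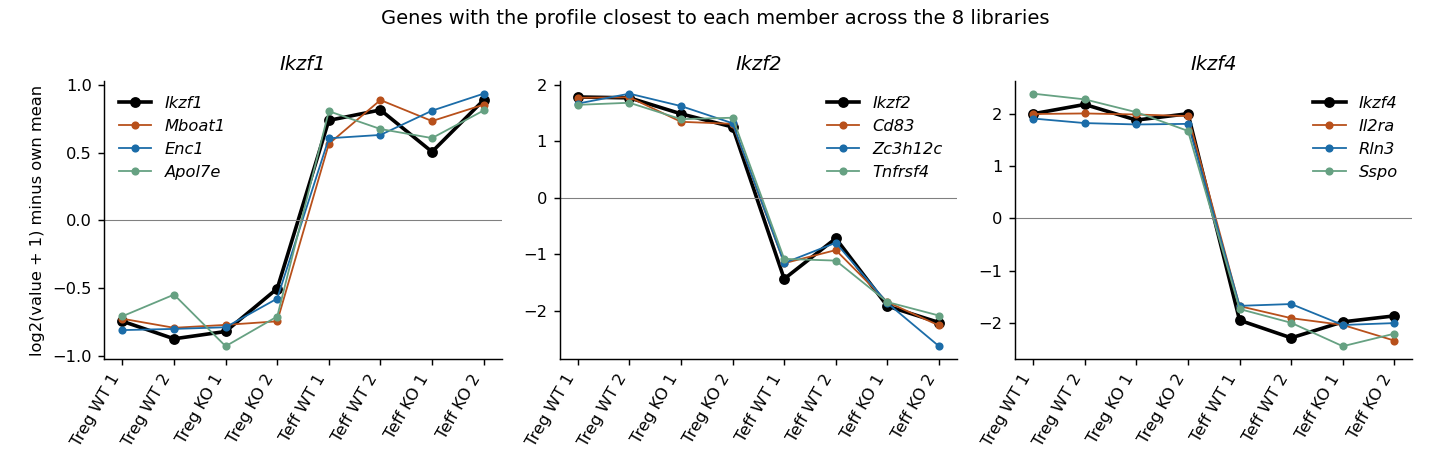
Log2(value + 1) of Ikzf1, Ikzf2 and Ikzf4 (black) and of the 3 genes with the closest profile (colours) in each of the 8 libraries, centred on each gene's own mean. Cd83 and Tnfrsf4 follow the 4 levels of Ikzf2, while Il2ra follows Ikzf4 with 1 step between Treg and Teff.

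Transcripts of proteins that work with the Ikaros family were examined by list. Of 13 NuRD subunits, the nucleosome remodelling and deacetylase complex, 0 were called between KO and WT in Treg, where 1.45% of all tested genes were, or in Teff, where 6.92% were. Their median log2 fold changes were -0.05 and -0.06 (all tested genes, -0.01 and -0.02). Between Treg and Teff in WT, where 25.1% of all tested genes were called, 2 were higher in Treg, the remodeller Chd3 (0.30, adjusted p = 0.00726) and the histone-binding Rbbp7 (0.30, adjusted p = 0.0405). Another 2 were lower, the methyl-DNA-binding Mbd2 (-0.43, adjusted p = 0.00278) and Mta2 (-0.23, adjusted p = 0.0231). Of these calls, that of Mbd2 held in all 18 alternative fits. Those of Chd3 and Mta2 were lost without WT Treg replicate 1, and those of Mta2 and Rbbp7 without WT Treg replicate 2 or WT Teff replicate 2, among others, with adjusted p up to 0.0558, 0.134 and 0.209 for Chd3, Mta2 and Rbbp7. In KO, where 26.9% of genes were called, 1 subunit was, Mbd2, lower in Treg (-0.22, adjusted p = 0.0394, up to 0.172 in the alternatives).

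Of 10 SIN3, CtBP and Polycomb partners, 1 fell in KO Teff, the histone methyltransferase Ezh2, from 984 in both WT libraries to 711 ± 58.5 (SD, n = 2), or -0.47 on the log2 scale (SE 0.09, adjusted p = 0.0247). That call was lost in 7 of 18 alternative fits, among them those without either WT Teff library or without KO Teff replicate 1 (adjusted p up to 0.104). In KO Treg 0 of the 10 were called. The cereblon ubiquitin ligase, through which thalidomide-like drugs direct Ikaros and Aiolos to degradation in human cells, had 4 tested subunits, and casein kinase 2 and protein phosphatase 1, which control Ikaros phosphorylation, had 5. None of these 9 genes was called in any of the 5 comparisons. Lists this short hold few calls at the shares over all genes given above, so these counts are not a result about the partners.

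Genes reported elsewhere as targets of the family in T cells were examined next. Of 15 tested, 6 were called higher and 6 lower in Treg than in Teff in WT, and 7 and 6 in KO, where 25.1% and 26.9% of all tested genes were called in either direction. The higher genes included Ctla4, an inhibitory receptor (2.07 in WT, adjusted p = 5.75e-06), and the lower ones Satb1, a chromatin organizer (-1.67, adjusted p = 6.82e-06), and Il17a, a cytokine of Th17 cells (-4.10, adjusted p = 7.92e-05). Il2, repressed by several family members, had 54.2 and 51.4 in WT Teff and 1.96 and 2.94 in WT Treg, where both values are under 10. Ctla4, Il2ra and Foxp3 also serve here as Treg markers, so this count and that of the markers are not separate. Il2 entered the test only through Teff and Foxp3 only through Treg, and Il2ra follows the sort. The counts include the calls of Il2, Foxp3 and Il2ra, which are not read as a result about the targets.

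Between KO and WT in Treg, where 1.45% of all tested genes were called, 1 of the 15 rose, Satb1, from 3029 ± 69.8 to 4080 ± 139 (SD, n = 2), or 0.43 on the log2 scale (SE 0.06, adjusted p = 0.0151). In Teff 2 were called higher, among them Foxp3 with every Teff value under 10, and 4 fell. Over all tested genes 1.84% were called higher and 5.08% lower. The median of the 15 was -0.34, against -0.02 over all tested genes. Satb1 rose from 9633 ± 433 to 12044 ± 315 (SD, n = 2; 0.32, SE 0.06, adjusted p = 0.0188), so that both KO libraries exceeded both WT libraries in each cell type. The Satb1 call in Treg was lost without any single Treg library and without trend and robust shrinkage (adjusted p up to 0.141), and the call in Teff in 5 of 18 alternative fits, among them those without WT Teff replicate 2 or either KO Teff library (up to 0.0943). Tbx21, the Th1 lineage factor, fell from 638 ± 40.2 to 321 ± 11.3 (SD, n = 2; -0.99, SE 0.12, adjusted p = 0.00582), a call that held in all 18 alternative fits. Bcl6, a transcriptional repressor that directs the differentiation of follicular helper T cells, fell by 0.63 (SE 0.08, adjusted p = 0.00677), a call lost only with Teff fitted alone. Ctla4 fell by 0.39 (adjusted p = 0.0136), a call lost in 3 of 18 alternative fits, among them the one without WT Teff replicate 2 (up to 0.0782). Ifng, named after its value was seen, also fell (-1.12, adjusted p = 0.0224), a call lost without any single Teff library (up to 0.115). Foxp3 was the other gene called higher, at the values near 0 given above, and its call held in 6 of the 17 alternative fits that tested it. It passed the filter only through its Treg values, so this call is not read as a rise. None of the 15 passed the test of the difference between the genotype effects, where 0.0225% of all tested genes did.

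Among 18 other zinc finger regulators of T cells, 0 were called in KO Treg, where 1.45% of all tested genes were, and in KO Teff, where 5.08% fell, 3 fell. They were Bcl6, Gfi1, a transcriptional repressor (-0.67, SE 0.09, adjusted p = 0.00748), and Egr3, an early gene of T cell receptor signalling (-0.56, SE 0.12, adjusted p = 0.0348). The Gfi1 call was lost with Teff fitted alone (adjusted p = 0.0621) and in no other alternative. The Egr3 call was lost in 10 of 18 alternative fits, up to an adjusted p of 0.149 without WT Teff replicate 2. The median of the 18 in KO Teff was -0.36, against -0.02 over all tested genes, and 3 of the 18 lay above 0. In KO Treg the median was -0.01, as it was over all tested genes.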

How the data were processed

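Polyadenylated RNA was sequenced as 50-base single-end reads, per the labels' protocols. The submitters' processing notes name Trim Galore 0.4.4, Salmon 0.14.1, R 4.0.3, DESeq2 1.28.1 and the build mm10 (GRCm38). The step from transcripts to genes was not given in the sources used here. From these the authors deposited 1 table of normalized read numbers (a signal that is not whole), with their log2 fold changes and adjusted p-values, used only where the text names that table. No count test was run. The values were tested here as log2(value + 1), the test the design named for normalized values, with limma 3.58.1 (trend and robust shrinkage, R 4.3.3), 1 coefficient per group over 8 libraries and 4 residual degrees of freedom. A fold change on this scale understates low genes. Genes reaching 10 in 2 or more libraries entered the test. P-values were adjusted by Benjamini-Hochberg over them within each of 5 contrasts and called at 0.05. The fit was tested on simulated data. Library sums are of normalized values, so they do not give sequencing depth, which is unknown here. Alternatives changed the pseudocount, filter, scaling, shrinkage, samples or a replicate block. Zinc fingers were found as reading-frame matches to a cysteine and histidine spacing pattern in each member's longest coding sequence. Genes named were the members, Foxp3, Il2ra, Ern1, up to 4 per list by smallest p, and the 3 closest profiles per member. Nrp1, Tnfrsf18, Il2 and Ifng were named outside this rule, Bst2 and Pax5 for their part in a marker sum, and Pstk for its overlap with Ikzf5. Cd22, Jchain and Derl3 were also named for their part in a marker sum, and Siglech, Klk1 and Klre1 for values under 10 in Treg. Mitochondrial genes were taken by their place in the annotation. Members and lists were chosen with earlier results of these data known. Figures used Python 3.11.15 and matplotlib 3.10.9.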

Additional observations from a re-analysis of the deposited data

How the results depend on the processing

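The number of members called was the same in all alternatives for KO against WT in Treg, for the difference of effects and within 1.5 times for Treg against Teff. For KO against WT in Teff it was 1 as reported and 0 without trend and robust shrinkage, with a replicate block and with only the 2 Teff groups fitted, and it ranged from 0 to 1 when single libraries were left out; the cause was not tested. With only the groups of a contrast fitted, the difference of effects gives no value of its own. When single libraries were left out, log2 fold changes ranged from -0.011 to 0.31 for Ikzf1 and from -0.025 to 0.070 for Ikzf5 (KO against WT in Treg), from -0.27 to 0.11 for Ikzf1 (KO against WT in Teff), and from -0.38 to 0.067 and -0.10 to 0.38 for Ikzf5 (Treg against Teff in WT and KO). None of these was called. The share of the leading member moved with the length used. With the mean length of protein-coding transcripts it was 56.1% and 47.4% for Ikzf2 in WT and KO Treg and 76.2% and 80.4% for Ikzf1 in WT and KO Teff. With the longest protein-coding transcript, chosen after seeing the data, it was 39.3% in WT Treg and 72.7% and 75.3% in WT and KO Teff. Libraries with the same replicate number showed little joint deviation (correlations of deviations between -0.0384 and 0.0590). Such correlations over all tested genes cannot exclude that these libraries share mice, so whether the numbers pair them is unknown. With the replicate block the Ikzf2 log2 fold change in Teff was -0.99 (adjusted p = 0.0677) and 0 members were called there. Over all genes, calls for KO against WT in Teff went from 924 to 571 without trend and robust shrinkage and to 210 with only Teff fitted, and those in Treg from 194 to 114 with the block. Because the values are normalized, what depth limits was not assessed.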
